A study of Mus musculus with 2 samples.

Results

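Differentiated urothelial organoids held cells marked by transcripts of contractile and matrix-associated genes, here chosen as the 979 of 4896 kept cells with the highest score for Acta2, Cav1, Htra1, Sparc, Tns1, Wnt7a and Emp3. Of these members 847 lay in 1 cluster with high Krt14, a basal keratin. Acta2 itself was found in 18.1% of the members, and 27.3% of them rested on a single UMI of the score. Outside these 7 genes, the members carried more of the actin-binding transcripts Cald1 (377 against 33.0 UMIs per 1000000 in the rest of the D cells) and Tpm1 (1698 against 359), of the matrix genes Fn1, Tnc and Col18a1, and of the basal keratins Krt17 and Krt14. Several of these levels came from a minority of the members. Fn1 was found in 22.4% of the members and 2.32% of the other D cells, Tnc in 9.40% and 0.77%, Krt17 in 19.3% and 2.68%, and Col18a1 in 38.8% and 4.42%. They carried less of the uroplakins, of the intermediate-cell marker Psca and of the enzymes of xenobiotic metabolism. Myh11, Des and Myocd, genes of smooth muscle, had no UMI in them. Among contractile genes outside the score, Cald1 and the tropomyosins were the ones widely found, and Myl9 was found in 53 members. Most basal markers were higher in the members, but Krt15 and Cd44 were lower, and 132 members fell outside the cluster that held the others, with high levels of Krt19 and Gstm1.

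The urothelium is the stratified epithelium that lines the bladder. Basal cells sit on the basement membrane and express Krt5, Krt14 and the transcription factor Trp63, intermediate cells lie above them, and luminal umbrella cells carry plaques of uroplakins. Acta2 encodes smooth muscle α-actin, which is made by smooth muscle, pericytes and activated fibroblasts, and also by myoepithelial cells, the contractile basal cells of glands such as the mammary gland. Contractile and adhesion genes are widely controlled by serum response factor, which binds the CArG box, and by TEAD factors with their partners YAP and TAZ, which bind the motif GGAATG.

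Organoids were grown in Matrigel from the urothelium of wild-type C57BL/6 mice aged 8-10 weeks, without a sort on EpCAM. P organoids stayed in complete medium. D organoids were moved to a medium without WNT3A, RSPO1, EGF, Noggin and the TGF-β receptor inhibitor LY2157299. Each condition was a single 10x Genomics 3′ library of dissociated cells, so no difference had a replicate check, no test was run, and the intervals given (95% throughout) cover counting error only. Both libraries shared 10 barcodes, 6 of them among the kept cells and 2 among the members.

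Barcodes entered with more than 800 detected genes and with mitochondrial genes at no more than 12% of UMIs, which left 4896 of 6975 barcodes in D and 6818 of 8194 in P (6826 if a barcode with exactly 800 genes is admitted). UMIs are counted molecules, and levels are UMIs summed over a group of cells per 1000000 (CPM). For each kept D cell the score was the mean of the natural log of 1 plus the UMIs per 10000 over the 7 genes, and the members were the top 20%. Because 3574 cells (73.0%) held no UMI of the 7 genes, the cut fell among cells with very few. The lowest member scored 0.2127 and the highest cell outside 0.2126. Of the members, 267 (27.3%) rested on a single UMI, and the cut then followed depth: the deepest such member held 2913 UMIs in all and the shallowest cell left outside with a single UMI held 2915. Within 0.05 of the cut lay 252 members and 170 other cells, so the set is a range of a score and not a type with an edge. In total 391 members (39.9%) showed 1 of the 7 genes, 322 showed 2, 148 showed 3, and 118 showed 4 or more, with all 7 in 3 cells.

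The members were shallower than the rest of D, with medians of 2771 against 3311 UMIs and 1268 against 1361 genes per cell. The mitochondrial share of all UMIs was 5.98% against 7.37% and the ribosomal protein share was 21.3% against 21.4%. Scrublet, a doublet caller, marked no cell with its automatic threshold and was taken not to have worked. A cut was set for the highest 6% of its scores in D, and cells tied at the cut were not counted. Above it lay 65 members (6.64%, exact binomial interval 5.16 to 8.38%) and 163 of the other cells (4.16%, 3.56 to 4.84%). The part of doublets in the results was not tested beyond leaving these cells out.

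The 7 genes of the score chose the members, so their levels are a description. Htra1, a secreted serine protease, was the most abundant, with 546 CPM (exact Poisson interval 521 to 571) in the members and 9.79 CPM (8.35 to 11.4) in the rest, and 715 members (73.0%) held it. Acta2 stood at 231 CPM (216 to 248) against 2.31 CPM (1.65 to 3.16). Its 798 UMIs came from only 177 members (18.1%), the richest of which held 52, while 38 other D cells held 39. Sparc, a matrix glycoprotein, reached 193 against 3.86 CPM, and Emp3, a membrane protein, 115 against 2.85 CPM. Tns1, a focal adhesion protein that binds actin, reached 62.1 against 0.83 CPM, Cav1, the coat protein of caveolae, 58.6 against 1.42 CPM, and Wnt7a, a secreted Wnt ligand, 38.0 against 0.95 CPM. Thus Htra1 was widely present among the members and Acta2 was concentrated in fewer than 1 in 5 of them.

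**Figure D1:**
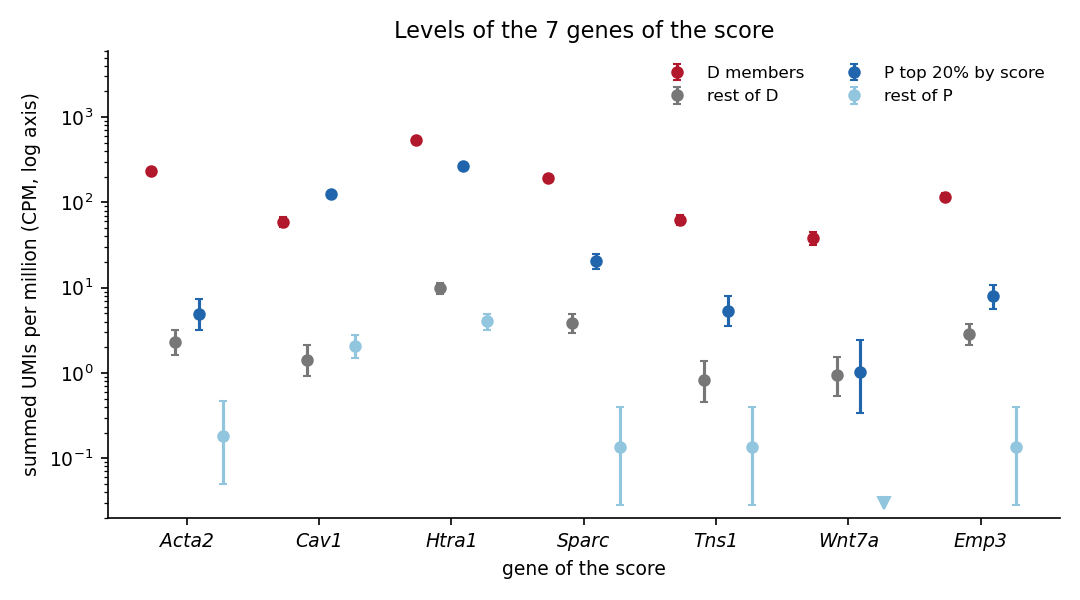
Levels of the 7 genes of the score in CPM on a log axis, in the D members, the rest of D, the top 20% of P cells by the same score and the rest of P; points are group sums, bars are exact Poisson intervals, and the triangle at the lower edge marks the group with no UMI. Cav1 stood higher in the chosen cells of P (127 CPM) than in the members of D (58.6 CPM), and the other 6 genes stood higher in the members of D.

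To describe how far the 7 genes went together, the top 20% of D cells was chosen again on the other 6 genes, and the left-out gene was then read. Acta2 stood at 221 CPM in the cells chosen without it and 5.14 CPM in the remaining cells, a log2 ratio of 5.43 (exact binomial interval 5.10 to 5.76), and 951 of these cells were also members. Tns1 gave a log2 ratio of 4.44, Wnt7a 4.03, Sparc 3.70, Htra1 3.49, Cav1 3.37 and Emp3 3.32. Each left-out gene was higher in the cells so picked, from 10.0 times for Emp3 to 43.0 times for Acta2. The 7 genes had been put together with earlier results of these data known. Between 771 (without Htra1) and 963 (without Wnt7a) of the 979 cells were members again. The ratios in D are therefore a description and no independent test. Without Htra1 only 966 D cells held a UMI of the other 6 genes, so 13 of the 979 cells had a score of 0 and were taken in file order. In P the choice without Htra1 took 629 such cells of 1363 and that without Cav1 took 247, so their ratios are not given. The ratio of Sparc in P was 2.66. For Acta2 in P the ratio was 1.76 and rested on 12 UMIs in the chosen cells and 16 in the others, and that of Tns1 was 1.01, with an interval from -0.30 to 2.21 that includes 0.

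Among 9391 genes outside the score with at least 100 UMIs in D, 451 (4.8%) were at least 2-fold higher in the members than in the rest and 534 (5.69%) at least 2-fold lower, and the median log2 ratio was 0.09. These shares are the background against which the counts in each gene list are read. Above 0 were 58.5% of all these genes and below 0 were 41.5%. The gene with the largest ratio was Fn1, fibronectin, at 104 against 6.29 CPM, a log2 ratio of 4.05 (3.73 to 4.37). Tnc, the matrix protein tenascin C, had a log2 ratio of 4.02, Col18a1, a basement membrane collagen, 3.93, and Krt17, a keratin of activated basal cells, 3.82. The next were the matricellular gene Smoc2 (3.73), the secreted protease Prss23 (3.72), Cald1 (3.51), the activin subunit gene Inhba (3.43), the kinase gene Nuak1 (3.41), the adhesion molecule gene Ncam1 (3.39) and the Wnt ligand gene Wnt10a (3.21). Ms4a10 (3.84), Mgat4c (3.78) and the defensin gene Defb2 (3.48) were also among the first 15, on 85, 101 and 73 UMIs in the members. Cenpf, a mitotic gene, entered the same group at 3.60 on 82 UMIs in 12 members, with 37.8% of them in a single cell, and it turned to -2.50 when the top 10% of cells was taken instead of the top 20%.

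The contractile list held 17 genes of smooth muscle contraction and its control, of which 7 reached 100 UMIs. Of these, 5 were at least 2-fold higher in the members, all 7 were above 0, none was 2-fold lower, and the median log2 ratio was 1.54 against 0.09 over all genes tested. Cald1, caldesmon, which holds actomyosin in check, stood at 377 CPM (1301 UMIs in 489 members) against 33.0 CPM, a log2 ratio of 3.51 (3.37 to 3.66). Tpm1 and Tpm2, the tropomyosins that line actin filaments, had log2 ratios of 2.24 (2.19 to 2.30) and 1.54 (1.46 to 1.62). The LIM protein gene Csrp1 stood at 1.55 and smoothelin, Smtn, at 1.33, on 83 UMIs in the members. Myl9, the regulatory light chain of smooth muscle myosin, was too rare for the list's summary but held 88 UMIs in 53 members and 4 UMIs in 4 of the other cells, which is 25.5 against 0.24 CPM. Tagln, which encodes the actin-binding protein transgelin, held 29 UMIs in 14 members and 6 in the rest. Other genes of the list were at or near 0 in the members: Myh11, Des and Myocd had 0 UMIs, Actg2 had 1, Cnn1 and Lmod1 had 2 each, and Mylk and Synpo2 had 3 each. Myh11, Cnn1 and Mylk also stand in the list of myoepithelial markers. With 3447627 UMIs in all the members, a count of 0 allows up to 3 UMIs, a one-sided limit for counting error only.

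The promoters of 3 contractile genes outside the score and that of Acta2 are shown because these genes carry the contractile description of the cells, Acta2 through the choice of members and the others outside it. Each is the RefSeq sequence on GRCm38.p6 from 250 bases before to 50 bases after the start site, read 5′ to 3′ on the strand of its gene, with capitals for the motif matched on either strand. Acta2 (chr19:34255324-34255623, minus strand), Cald1 (chr6:34598254-34598553, plus strand) and Tpm1 (chr9:67049164-67049463, minus strand) carry GGAATG, which starts 146, 153 and 56 bases before the start site. Myl9 (chr2:156775214-156775513, plus strand) carries a CArG box, which starts 161 bases before it.
Acta2: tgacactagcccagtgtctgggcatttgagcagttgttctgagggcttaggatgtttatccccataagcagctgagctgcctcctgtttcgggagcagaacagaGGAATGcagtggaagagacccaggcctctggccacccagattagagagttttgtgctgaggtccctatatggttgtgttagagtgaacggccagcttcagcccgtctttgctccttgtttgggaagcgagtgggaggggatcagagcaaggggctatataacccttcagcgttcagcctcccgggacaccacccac
Cald1: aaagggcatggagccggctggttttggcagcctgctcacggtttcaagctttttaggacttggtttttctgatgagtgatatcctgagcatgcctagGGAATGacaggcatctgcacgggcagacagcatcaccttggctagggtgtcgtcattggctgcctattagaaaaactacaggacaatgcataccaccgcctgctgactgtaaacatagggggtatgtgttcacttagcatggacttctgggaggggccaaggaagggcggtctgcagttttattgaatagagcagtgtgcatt
Tpm1: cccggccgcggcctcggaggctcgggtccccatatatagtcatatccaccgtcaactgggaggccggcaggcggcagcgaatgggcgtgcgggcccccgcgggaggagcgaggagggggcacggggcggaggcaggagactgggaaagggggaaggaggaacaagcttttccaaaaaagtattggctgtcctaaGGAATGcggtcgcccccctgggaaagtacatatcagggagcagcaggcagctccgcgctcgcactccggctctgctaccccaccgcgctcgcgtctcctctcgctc
Myl9: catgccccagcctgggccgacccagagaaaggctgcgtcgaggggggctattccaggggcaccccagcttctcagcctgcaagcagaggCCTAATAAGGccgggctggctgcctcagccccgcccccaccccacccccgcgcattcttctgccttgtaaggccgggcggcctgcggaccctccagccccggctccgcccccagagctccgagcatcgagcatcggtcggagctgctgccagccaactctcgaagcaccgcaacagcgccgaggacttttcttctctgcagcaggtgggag

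Over all 27025 genes with such a sequence, 16.6% held GGAATG and 1.81% a CArG box, and over the genes tested 13.7% and 1.63%. Of the 100 genes with the largest ratios, 73 had a sequence, of which 15 (20.5%) held GGAATG, Col18a1, Axl and Palld among them, and 2 (2.74%) a CArG box, Cnn2 and Stbd1. Of the contractile list 12 genes had a sequence, and 5 of them held GGAATG (Cald1, Lmod1, Mylk, Smtn and Tpm1) while 2 held a CArG box (Myl9 and Srf). Acta2 was the only gene of the score with GGAATG, and none of the 7 held a CArG box of the strict form. That form is CC, then only A or T, then GG, and near matches were not counted or marked in any promoter. The Acta2 sequence holds ccctatatgg and ccttgtttgg, each of which departs from it by a single base. A match of letters is a description of the sequence and not a measured binding site.

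The wider actin cytoskeleton was also higher, by smaller amounts. Of 19 tested genes of nonmuscle actin, 18 were above 0 (58.5% over all genes tested) and 5 at least 2-fold higher, with a median log2 ratio of 0.75. Those 5 were the calponins Cnn2 (2.36) and Cnn3 (1.08), the filament cross-linkers Actn1 (2.30, 386 against 78.3 CPM) and Flna (1.98, 339 against 85.8 CPM), and Tpm4 (1.15). The abundant actins themselves differed little, with Actb at 0.48 and Actg1 at 0.53. Of 5 caveolar genes besides Cav1, the coat component Cavin3 stood at 2.85 (186 against 25.8 CPM) and the ATPase Ehd2 at 2.68, Cavin1 at 0.75, and the intervals of Cav2 (0.16) and Pacsin2 (0.20) included 0. Cavin2 had no UMI in D. In the focal adhesion list 3 of 14 tested genes were at least 2-fold higher, which were the integrin activator Fermt2 (2.09), Tns4 (2.02) and the kinase-like scaffold gene Ilk (1.26).

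**Figure D2:**
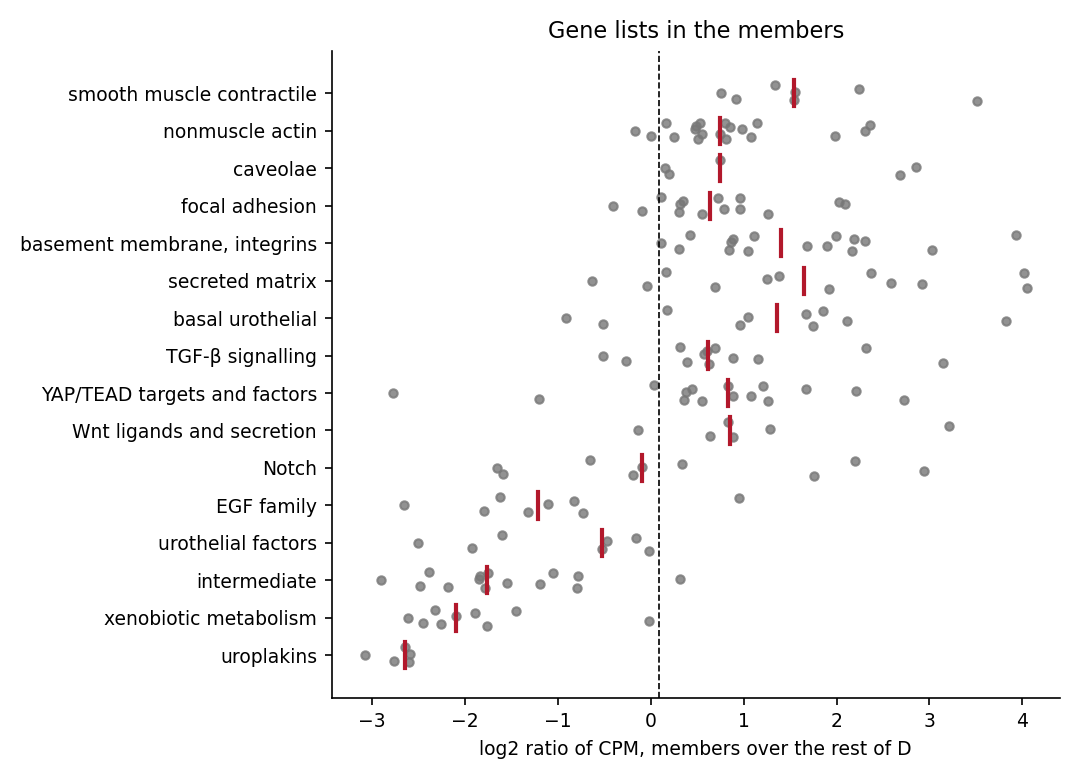
Log2 ratio of CPM, members over the rest of D, for each gene with at least 100 UMIs in D (grey points, genes of the score left out), by gene list; red bars are list medians and the dashed line is the median of all genes tested, 0.09. Medians ran from 1.65 for the secreted matrix to -2.65 for the uroplakins.

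Basement membrane components and their receptors were higher as a group. Of 16 tested genes, all were above 0 and 10 were at least 2-fold higher, with a median log2 ratio of 1.40. Col18a1 (181 against 11.9 CPM) and the anchoring fibril collagen Col7a1 (199 against 24.4 CPM, log2 ratio 3.03) led, followed by Lama3 at 2.31 and Lamb3 at 1.90, which encode chains of epithelial laminin. The laminin receptor subunit Itga3 stood at 70.5 against 17.7 CPM, and Itgb4 and Itgb6 both had a log2 ratio of 1.68. Lamb1 stood at 2.16 on 55 UMIs in the members. Nid1 and Nid2 had no UMI in D.

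Of 12 tested genes for secreted matrix proteins and their regulators, 8 were at least 2-fold higher, with a median of 1.65. Beside Fn1 and Tnc these included the metalloproteinase inhibitor Timp3 (548 UMIs in the members and 354 in the rest, log2 ratio 2.92), Fstl1 (2.59), the small proteoglycan decorin, Dcn (184 against 35.6 CPM, 2.37), Igfbp5 (1.91), the membrane protease Mmp14 (1.38) and Thbs1 (1.25). Igfbp3 was lower (-0.63), and Igfbp7, the most abundant gene of the list with 1409 UMIs in the members, stood at 0.16. Among genes typical of fibroblasts, Col1a1 had 6 UMIs in the same cells, Col3a1 had 12, and Col1a2, Pdgfra, Bgn and Mgp had 0. Other matrix genes of the list were too rare to be tested and did not all go one way. Fbln2 held 71 UMIs in 44 members against 20 UMIs in the rest (log2 ratio 4.12), and Timp1 held 21 against 4. Postn held 6 against 0 and Mmp2 held 3 against 0. Spp1 held 0 against 9, Fbln1 held 1 against 5, and Vcan held 1 against 4.

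Basal markers were higher in the members, with 2 exceptions. Of 10 tested genes, 6 were at least 2-fold higher, and the median log2 ratio was 1.36. Krt14 stood at 10333 against 2387 CPM (log2 ratio 2.11, 2.09 to 2.13), and at a depth of 2100 UMIs per cell 98.6% of the members and 63.9% of the other cells held it. In the D cluster led by Ubd, Ankrd1 and Ifit1bl1, 52.7% of the thinned cells held Krt14 as well, and its level was 1102 CPM. Upk3a and Upk3b were among the leading 10 genes of that cluster, and its median depth before thinning was 4061 UMIs. Whether these Krt14 UMIs came from expression in those cells or from free RNA in the droplets was not tested. That limit holds for shares and levels alike. The hemidesmosomal collagen Col17a1 stood at 1.85, P-cadherin, Cdh3, at 1.75, Itgb4 at 1.68, Trp63 at 1.05 (136 against 65.8 CPM) and Itga6 at 0.96. Krt5, which basal and intermediate cells share, hardly differed (4371 against 3868 CPM, 0.18). Cd44 (-0.51) and Krt15 (4252 against 7976 CPM, -0.91), another keratin of basal cells, were lower. Krt14, Krt16 and Krt17 are close relatives, and how reads common to them were counted was not tested.

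Genes of differentiation were mostly lower. All 5 tested uroplakins were at least 2-fold lower, with a median log2 ratio of -2.65 and a narrow range, from -3.08 for Upk3b to -2.59 for Upk1a. Upk1a stood at 91.9 against 555 CPM and Upk3a at 58.6 against 396 CPM, and 26.2% of the members' Upk3a UMIs lay in a single cell. At equal depth a uroplakin UMI was found in 17.4% of the members (146 of 838, exact binomial interval 14.9 to 20.2%) and in 62.0% of the other cells (2220 of 3579, 60.4 to 63.6%). Without thinning the shares were 21.8% and 67.3%. How much of the members' share came from free RNA in the droplets was not tested. In P, where uroplakin transcripts are scarce, the thinned shares were 1.35% in the top 20% by the same score and 2.88% in the rest. Of 14 intermediate markers 11 were at least 2-fold lower, with a median of -1.77, and they included the tight junction genes Cldn3 (-2.90) and Ocln (-2.39), the surface antigen gene Psca (362 against 2024 CPM, -2.48) and Krt4 (-2.18). Krt7 was the exception, at 0.32. Of 9 genes of xenobiotic metabolism 8 were at least 2-fold lower, with a median of -2.10, such as the glutathione transferase Gstm1 (554 against 2764 CPM, -2.32) and the lung-type cytochrome Cyp2f2 (-2.45), while Aldh3a1 stood at -0.01. The transcription factors Grhl3 (-2.50), Pparg (-1.92) and Elf3 (-1.60), which are tied to urothelial maturation, were lower, and Gata3 (-0.16) and Rxra (-0.02) nearly level. The medians depended on where the score was cut. With the top 30% of cells they were -1.13 for the uroplakins, -0.80 for the intermediate list and -0.90 for xenobiotic metabolism, and with the top 10% that of the uroplakins was -3.46.

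The genes with the smallest ratios were all of low level. Slc44a4, a choline transporter-like gene, had 0 UMIs in the members and 138 in the rest, which is at least 9.41-fold lower against the floor of 3 UMIs over all members. The two-sided exact interval of the ratio allows 7.55-fold. Ifit1bl1, an interferon-induced gene, had 0 and 112, at least 7.64-fold lower on the same floor, where the interval allows 6.11-fold. Ltf, which encodes lactoferrin, had 7 and 630 UMIs (log2 ratio -4.20), and Sftpd, Reg1, Slc39a8, Kbtbd11 and Dusp4 had at most 4 UMIs each in the members. Plat (-4.59) and Serpinb11 (-4.57) had 1 UMI each in the members.

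Signalling genes were read by pathway. Among Wnt genes, Wnt10a stood at 165 against 17.9 CPM (3.21), and Wls, the carrier that Wnt ligands need for secretion, at 842 against 345 CPM (1.29), with Wnt5a (0.89), Wnt4 (0.83) and Wnt7b (0.63) also higher. Of the receptors and targets of that pathway 1 of 10 tested genes was at least 2-fold higher, the ubiquitin ligase gene Rnf43 (1.02), all 10 were above 0, and the median was 0.37. Axin2, a direct target, was too rare to be tested, with 5.22 against 3.44 CPM (18 and 58 UMIs) and an interval of the log2 ratio from -0.25 to 1.39, and Lgr5 held 0 and 2. Among Notch genes the ligands Dll1 (2.94) and Jag2 (2.20) and the ligand-receptor modifier Lfng (1.75) were higher. The targets Nrarp (104 UMIs in the members and 1602 in the rest, -1.66) and Hes1 (-0.66) and the receptor Notch3 (-1.59) were lower, while Notch1 stood at -0.09.

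In the TGF-β list 3 of 12 tested genes were at least 2-fold higher: the secreted target Tgfbi (3.14), the ligand Tgfb2 (2.31) and the feedback inhibitor Pmepa1 (1037 against 467 CPM, 1.15). Pmepa1 went the other way in P, where it was 825 UMIs in all and its log2 ratio -0.46 (-0.76 to -0.17). The list's median was 0.62. In the list of YAP and TEAD genes 6 of 15 were at least 2-fold higher, among them the receptor Axl (2.73), Cyr61 (2.21) and Ajuba (1.67), while the targets Ankrd1 (-2.77, on 5 UMIs in the members) and F3 (-1.20) were lower. Yap1 itself stood at 0.36 and Wwtr1, which encodes TAZ, at 0.03. Of 8 genes of the EGF family 5 were at least 2-fold lower, with a median of -1.21 (-0.50 with the top 30% of cells): the ligands Areg (22.3 against 141 CPM, -2.65), Ereg (-1.79), Btc (-1.62) and Hbegf (-1.10) and the receptor Erbb3 (-1.32). The receptor Egfr was higher at 0.95. Of the genes of epithelial-mesenchymal transition, Snai2, which basal cells of many epithelia express, stood at 1.97, while Vim, Twist1 and Snai1 had no UMI in the members, Epcam stood at 0.15 and Cdh1, E-cadherin, was lower (210 against 313 CPM, -0.58). Immediate early genes, which respond to dissociation, were mostly lower in the members, with 13 of 14 below 0 (41.5% over all genes tested) and a median of -0.51.

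Markers of other cell types were read for the whole of each list. Of 9 fibroblast markers 6 had no UMI in the members and the list summed to 19 UMIs there against 18 in the rest, which is 5.51 against 1.07 CPM. Of 9 markers of pericytes and smooth muscle 6 had none, with Pdgfrb, Kcnj8, Myh11 and Des at 0, and outside Acta2 the list held 118 UMIs of Rgs5 in 60 members (34.2 against 6.47 CPM) and 46 UMIs of Mcam. Of 7 endothelial markers 5 had none, Pecam1 held 13 UMIs, and the list summed to 6.38 against 2.67 CPM. Of 7 leukocyte markers 3 had none, Ptprc and Tyrobp among them, and Laptm5 was lower in the members (13 against 387 UMIs). Myoepithelial markers were split, since Krt14, Krt5 and Trp63 were present while Myh11 and Oxtr had no UMI and Cnn1 and Mylk had 2 and 3.

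Levels outside the score followed the number of score genes that a cell showed, in groups that also differed in depth and doublet score. Median depth was 2264 UMIs in members with a single UMI and 4439.5 UMIs in those with 4 or more genes. Above the doublet-score cut lay 3.37% of members with a single UMI, 9.32% of those with 2 genes and 7.63% of those with 4 or more. The part of depth and doublets in this gradient was not tested. Cald1 stood at 25.6 CPM in the 3574 D cells with none of the 7 genes, 126 CPM in members with a single UMI, 307 CPM in members with 2 genes and 698 CPM (636 to 765) in the 118 members with 4 or more. Tpm1 went from 331 CPM to 2748 CPM over the same range, Fn1 from 5.06 to 187 CPM and Col18a1 from 9.57 to 295 CPM. Krt14 behaved differently, as it was already at 9267 CPM in members with a single UMI and at 11029 CPM in those with 4 or more. Krt5 was level, with 3810 CPM at the low end and 4312 CPM at the high end. The 343 cells left outside in spite of a UMI, most of them deep (median 4839 UMIs), held 3835 CPM of Krt14 and 82.0 CPM of Cald1, which lay between the cells without a UMI and the single-UMI members. Of these 343 cells 13.1% (9.73 to 17.2%) lay above the doublet-score cut, against 3.30% of the cells without a UMI. Whether mixed cells set their levels was not tested.

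A second set of basal genes was high in the lowest members and lower in the highest. Dcn stood at 30.8 CPM in cells with none of the 7 genes, at 292 CPM (251 to 339) in members with a single UMI, 201 CPM with 2 genes, 137 CPM with 3 and 81.3 CPM (60.9 to 106) with 4 or more. Igfbp5 went from 24.6 CPM in cells with none to 198 CPM in single-UMI members and 44.5 CPM in the highest. Trp63 went from 63.0 to 159 and 103 CPM in the same order. Krt15 was not raised in the lowest members, as it went from 8194 to 6168 and 2417 CPM over these 3 groups. Uroplakins summed to 1508 CPM in cells without a UMI of the score and to between 150 and 303 CPM in the 5 groups of members, without a trend across them.

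**Figure D3:**
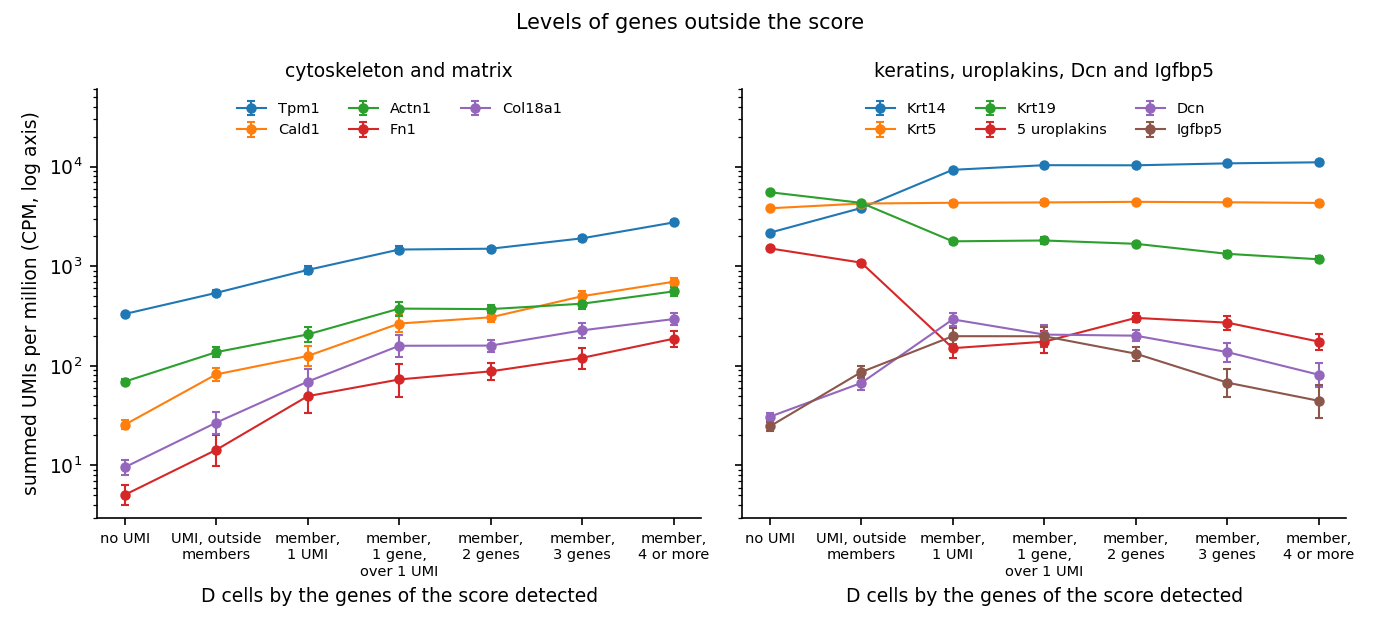
Levels in CPM, on a log axis, of genes outside the score in D cells grouped by the score genes they show, from none on the left to 4 or more on the right; points are group sums and bars are exact Poisson intervals. Cald1, Tpm1, Actn1, Fn1 and Col18a1 were higher from group to group along the axis, with the exception of Actn1 between 1 gene and 2 genes, Krt14 reached its level in single-UMI members, and Dcn and Igfbp5 were highest in the lower groups of members.

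The members were also split by Acta2, a split chosen after the values had been seen. Since Acta2 is a gene of the score, the cells with it lie toward the higher score groups by construction (log2 ratios of 0.69 for Htra1 and 0.71 for Cav1), and the split is no second measurement of the gradient. The 177 members with an Acta2 UMI were deeper (median 3899 UMIs) than the 802 without one (2659 UMIs), so ratios were also taken after thinning to 2100 UMIs. Among 4476 genes with at least 100 UMIs in the members that were detected in at least 5% of either group, 20 (0.447%) were at least 2-fold higher in the cells with Acta2 and 18 (0.402%) at least 2-fold lower. Krt17 stood at 404 against 121 CPM (log2 ratio 1.74, 1.95 thinned), Krt16, a keratin of activated epidermis, at 282 against 101 CPM (1.48), Fn1 at 197 against 73.0 CPM (1.43), Cavin3 at 340 against 135 CPM (1.33), Inhba at 1.26 and Cald1 at 666 against 282 CPM (1.24). Psca (1.18) and Krt8 (1.10), which mark intermediate cells, were also higher in the members with Acta2. A single cell held 9.37% of all the members' Psca UMIs. Above the doublet-score cut lay 9.04% (5.26 to 14.3%) of the members with Acta2 and 6.11% (4.55 to 8.00%) of those without. The part of doublets in this split was not tested. The cell cycle inhibitor Cdkn1c (-2.93, 5 UMIs with and 115 without Acta2), Dcn (75.7 against 220 CPM, -1.54), Igfbp5 (-1.46), Epas1 (-1.47) and Ptn (-1.36) were lower. Krt14 (0.04) and Krt5 (-0.01) did not separate the groups, and Trp63 stood at -0.27 with an interval that includes 0.

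**Figure D4:**
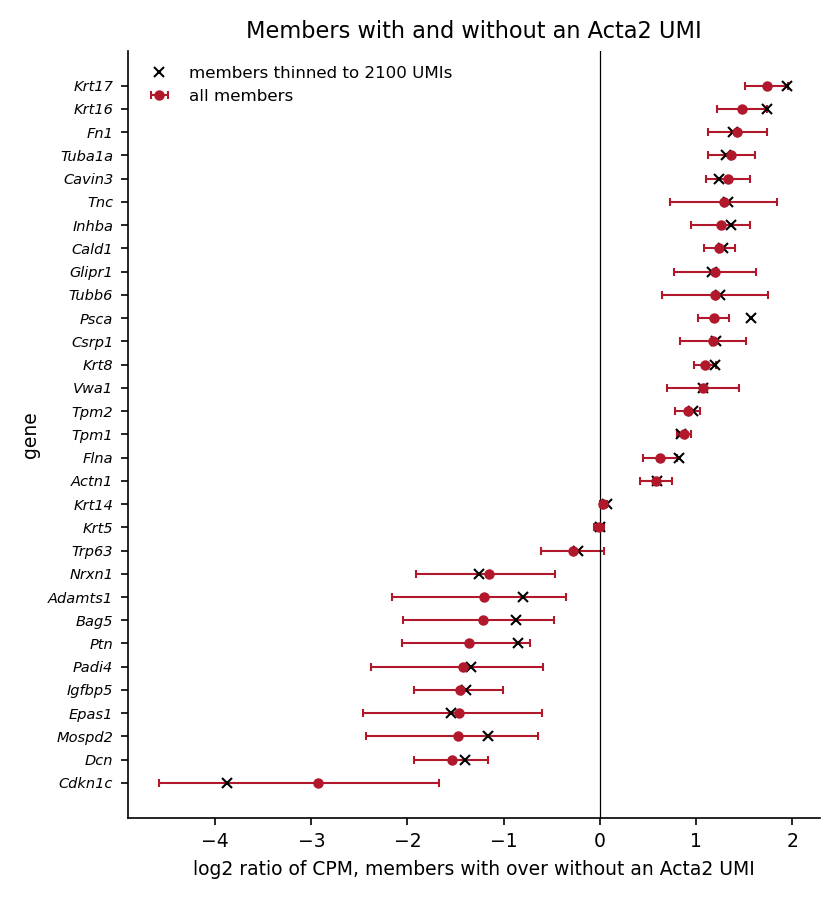
Log2 ratio of CPM between members with and without an Acta2 UMI, by gene, for all members (red points, bars are exact binomial intervals) and for members thinned to 2100 UMIs (crosses). The genes shown are among the 15 with the largest and the 10 with the smallest ratio, together with 7 contractile and basal genes; Krt17 had the largest ratio, 1.74, and Cdkn1c the smallest, -2.93.

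In a clustering of the D cells (Seurat, 4 clusters), 847 members (86.5%, exact binomial interval 84.2 to 88.6%) fell into 1 cluster of 1296 cells, of which they made up 65.4%. With the 7 genes removed from the clustered features the cluster that held most members took 841 of them (85.9%). The 449 other cells of the cluster had 10507 against 11453 CPM of Krt14 in the members in it and 1355 against 958 CPM of Krt19, and they held less Cald1 (150 against 439 CPM), Tpm1 (1006 against 1924 CPM), Fn1 (36.8 against 118 CPM) and Col18a1 (69.6 against 209 CPM). They held more Dcn (276 against 204 CPM) and Igfbp5 (247 against 141 CPM). The 132 members outside the cluster had 5019 CPM of Krt14, 4381 CPM of Krt19 and 2211 CPM of Gstm1, which is nearer to the cells outside the cluster that are not members (1737, 5684 and 2971 CPM). Their Cald1 (86.7 CPM) and Tpm1 (628 CPM) still exceeded the 23.6 and 307 CPM of those cells. In the cluster led by Ubd, Ankrd1 and Ifit1bl1 the thinned share of cells with Acta2 was 1.53% (0.74 to 2.80%), as against 11.6% (9.72 to 13.7%) in the cluster of the members.

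Few members were in cycle. At equal depth 8 of 838 (0.95%, 0.41 to 1.87%) showed at least 2 of 12 proliferation genes, against 10 of 3579 other cells (0.28%, 0.13 to 0.51%). The intervals overlapped, which does not decide whether the shares differ, and the difference was not tested. Without thinning the shares were 1.33% and 1.15%. The higher level of Cenpf and of Top2a (2.76, 58 UMIs in 7 members) rested on few cells. The richest cell for each gene carried 37.8% and 32.8% of the members' UMIs. Whether these cells were among the 8 was not determined.

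To see whether the pattern outside the score recurred where the members had not been chosen, the same score was applied to P and its top 20% (1363 cells) set against the other 5455. The score was thinner there: 81.7% of the chosen P cells showed a single gene of the 7, none showed more than 3, and 837 P cells (12.3%) reached the D cut. Acta2 had 28 UMIs in all kept P cells and Wnt7a 5, against 837 and 147 in D, while Cav1 had 656 against 226. In P, 2.91% of 9483 genes tested were at least 2-fold higher and 3.51% at least 2-fold lower in the chosen cells, and 59.3% were above 0. Of the 100 genes outside the score with the largest ratio in D, among 8936 with 100 UMIs in both libraries, 97 were higher in the chosen cells of P and 64 at least 2-fold, with a median log2 ratio of 1.16 there against 2.33 in D. Of all those genes 58.9% were higher in P. The exceptions were Stk17b (-0.09), Gadd45g (-0.03) and Flrt2 (-0.12). Of the 100 with the smallest ratio in D, 99 were lower in P, with medians of -1.80 in P and -2.45 in D, and Ttc39a (0.16) was the exception. Of the chosen P cells 922 held Htra1 and 538 held Cav1. Sparc was in 86 of them, Emp3 in 37, Tns1 in 26, Acta2 in 17 and Wnt7a in 5. The choice in P thus shows mainly which transcripts accompany Htra1 and Cav1 in a second library, and it is no replicate of D.

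**Figure D5:**
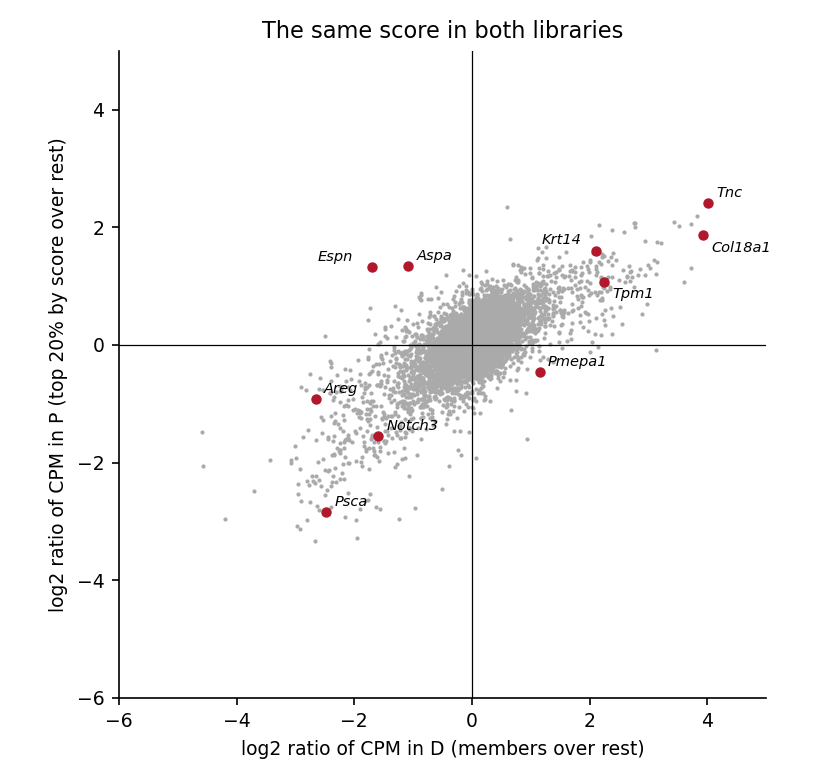
Log2 ratio of CPM in D (members over the rest, horizontal) against that in P (top 20% by the same score over the rest, vertical) for 8936 genes outside the score with at least 100 UMIs in each library; named genes are red. Tnc, Col18a1, Krt14 and Tpm1 lay high on both axes, Psca, Areg and Notch3 low on both, and Pmepa1, Espn and Aspa had opposite signs.

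Ratios of contractile and matrix genes were smaller in P. The contractile list had a median of 0.52 there, with 2 of 7 tested genes at least 2-fold higher, Cald1 (2.03) and Tpm1 (1.07). The secreted matrix list had 3 of 10 and a median of 0.65, and the basement membrane list 9 of 19 and 0.97. Timp3, Fn1, Dcn and Fstl1 held only 4, 24, 40 and 40 UMIs in all kept P cells, so that their ratios in P say little, and Myl9 held none. Of the basal keratins, Krt14 stood at 1.60 in P against 2.11 in D, and Krt17 at 2.19 against 3.82. Differences between the ratios of D and P were not tested.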

How the data were processed

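The deposited matrices of UMI counts per gene and barcode were made by the authors with Cell Ranger 3.0.2 on GRCm38/mm10 from bcl2fastq 2.19.0 output (Chromium 3′ kit version 3, 10000 cells loaded per condition), and no normalization had been applied to these counts. The annotation release is not given in the sources used here. The files held 28921755 UMIs in P and 22949953 in D, of which the kept cells had 26681469 and 20305621. The members, the score and the 26 gene lists were chosen with earlier results of these data known, as were the rules below.

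UMIs were summed over cells and given per 1000000 (CPM). Intervals were exact Poisson for levels, exact binomial (Clopper-Pearson) for shares and exact conditional binomial for ratios, at 95%. With 1 library per condition no test, SE or p-value was computed. A gene needed 100 UMIs over the kept D cells to be counted in a comparison, and a 2-fold ratio of CPM was the size used in place of a test. Genes named were the 7 of the score, the 15 with the largest and 10 with the smallest log2 ratio (0.5 UMI added for ranking), up to 5 per list by size of ratio, and markers of other cell types. Other list members, Krt16 and the further genes of the split by Acta2 were named after their values were seen.

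For shares, cells were thinned at random to 2100 UMIs, which left out 141 members and 338 other D cells as shallower. Clusters of D cells came from Seurat 5.3.0, run in R 4.3.3 (2000 variable features, 21 components, resolution 0.2). Doublet scores came from Scrublet in scanpy 1.11.5, whose automatic threshold called 0 cells, and no cell was removed for them. The ratio and its interval were tested on simulated data. No columns of per-sample values were left unused. Some genes that the rule would name are not reported here.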

Additional observations from a re-analysis of the deposited data

Results flagged for a closer look

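Espn, which encodes an actin-bundling protein, and Aspa, which encodes an aspartoacylase, were the genes at least 2-fold lower in the members of D and at least 2-fold higher in the chosen cells of P, and they were looked at for that reason. Espn had a log2 ratio of -1.70 in D (28 UMIs in the members, 446 in the rest, interval -2.31 to -1.15) and of 1.32 in P (0.79 to 1.83, on 141 UMIs in all). Aspa had -1.08 in D (14 and 145 UMIs, -1.99 to -0.29) and 1.33 in P (0.74 to 1.91, on 112 UMIs). The difference between the libraries was not tested, and each condition had a single library.

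Barcodes left out of every comparison also carried genes of the score. In D the 2079 left-out barcodes held 670 UMIs of the 7 genes, which is 323 per 1000000 UMIs of non-mitochondrial genes (exact Poisson interval 299 to 349), against 247 (240 to 254) in the kept cells. Htra1 made up 390 of the 670. In P the values were 96.4 (83.2 to 111) in the 1376 left-out barcodes and 89.5 (85.8 to 93.2) in the kept cells.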

How the results depend on the processing

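With the minimum per gene at 20 UMIs, 904 genes were at least 2-fold higher and 953 lower, and with 500 UMIs 169 and 242. Taking the top 30% of cells, which is more than held any UMI of the score, gave 277 and 120 genes, a uroplakin share of 31.4% and a log2 ratio of 0.12 for Ankrd1. The uroplakin share was 14.2% with the top 10%, 21.2% with the score taken on cells thinned to 2100 UMIs and, in an alternative chosen after seeing the data, 13.7% without the 6% of cells with the highest doublet score. Cenpf turned to -2.50 with the top 10% and to -0.85 with the thinned score. The other 43 values of the main results, over cell filters, scalings, score genes, reference cells and clusterings, stayed within 1.5 times the count or within the interval. The uroplakin median, -2.65 as reported, was -3.46 with the top 10%, -1.13 with the top 30%, -1.89 with the thinned score and -3.48 without the cells of high doublet score. With the top 30% the medians were -0.80 for intermediate markers (-1.17 with the thinned score), -0.90 for xenobiotic metabolism and -0.50 for the EGF family. List medians kept their sign in every alternative except those for proliferation (-0.16 to 0.68) and ribosomal protein genes (-0.06 to 0.03), with 49 of 281 values beyond the counting interval, as were 298 of 1735 values of named genes. The causes were not tested. Leaving out the cells that Scrublet called was not run, as it called none. Depth limits genes under 100 UMIs and every call on a single UMI. No paired analysis was possible because each condition has 1 library.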

Other observations

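In P genes of the cell cycle accompanied the score. Of 10 proliferation genes tested in P, all 10 were above 0 (59.3% over all genes tested) and 7 were at least 2-fold higher in the chosen cells, with a median log2 ratio of 1.19 against 0.08 over all genes tested, and Top2a, a DNA topoisomerase of dividing cells, stood at 80.9 against 40.9 CPM. In D only 3 of the 12 genes reached 100 UMIs, 1 of them at least 2-fold higher, with a median of 0.48, and the difference between the libraries was not tested. Ribosomal protein genes were level with the score in both libraries, with medians of 0.02 in D and 0.07 in P. Nrg1, the ligand of the receptor Erbb3, held 28 UMIs in the members and 40 in the rest of D (log2 ratio 1.78) and had a log2 ratio of 1.93 in P on 269 UMIs. It was named after its values were seen.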
